A study of Mus musculus with 18 samples.

Results

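Cd274 and the genes that induce, brake and stabilise its product were followed through B16F10 melanomas treated with a ribozyme against the Cd274 mRNA. The 8 genes were chosen by name and by no cut on their values, with earlier results of these data known. They include Cd274, which encodes PD-L1, the receptor subunits Ifngr1 and Ifngr2 and the kinases Jak1 and Jak2. The others are the transcription factor Irf1, the feedback inhibitor Socs1 and Cmtm6. The deposited expression table holds 41079 genes. All 8 were among the 12357 genes that passed the filter of a mean of at least 1 FPKM. FPKM are the sequenced fragments of a gene, scaled to its length and to the total of the tumor. Bulk poly(A) RNA was sequenced from 18 tumors, 3 in each of 6 groups. B16F10, a mouse melanoma cell line, had been placed under the flank skin of C57BL/6 females, mice whose own immune system is intact. From day 6, at a tumor volume of about 50 mm3, each mouse received injections into the tumor every 2 days.

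The PBS group received buffer alone, and Free PS473 received the ribozyme PS473 with no carrier. PS473@CPs received the same ribozyme with cationic polymers. NKMOF-101-[Mn] received a manganese-based metal-organic framework with no ribozyme, M5@NKMOF-101-[Mn] the framework loaded with the inactive mutant ribozyme M5, and PS473@NKMOF-101-[Mn] the framework loaded with PS473. The sample titles of the last group carry another framework number than its treatment description, which was followed here. All 6 groups share the cell line, the strain and the route of injection, and groups that received the polymers alone, free M5 or M5 with polymers were not analysed here. The age of the mice is not given in the sources used here, which describe the sequenced tissue as excised tumors and give more than 1 length of treatment. The records list each tumor as a separate sample and do not say whether samples are from separate mice, so the p-values measure the spread between these samples.

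PD-L1 sits on tumor cells and on many immune cells, and it dampens T cells through its receptor PD-1. Interferon-gamma, made mainly by T cells and NK cells, binds a receptor built from the subunits that Ifngr1 and Ifngr2 encode, and the receptor-bound kinases JAK1 and JAK2 then signal to the nucleus. This signal induces IRF1, which acts at the Cd274 promoter, and also SOCS1, which inhibits the kinases, while CMTM6 keeps PD-L1 protein at the cell surface by protecting it from degradation and therefore acts on the protein and not on the mRNA. In a bulk tumor, fewer cells of a type and less RNA per cell cannot be told apart for any of these genes.

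The ribozyme is shown beside its mutant and its target, because PS473 was designed to cut the Cd274 mRNA at the site shown. The Cd274 values below count fragments over the whole gene and not over this site. They give the level of the RNA and do not show whether the site was cut. Pistol ribozymes pair with an RNA on both sides of a GU and cut between its bases. Capitals in PS473 mark the bases that pair with the Cd274 mRNA, 4 for the bases after the GU and 10 for those before it. Capitals in M5 mark its differences from PS473, G40U and C41A, counted from 1 at the 5′ end of PS473 and found over the 52 positions that the listed sequences share. Capitals in the Cd274 site mark the GU, whose G is coding position 473.
PS473: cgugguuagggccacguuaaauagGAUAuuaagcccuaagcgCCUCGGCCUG
M5: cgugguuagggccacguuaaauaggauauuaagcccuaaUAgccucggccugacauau
Cd274 site: auaugucaggccgaggGUuauc
The site lies on the plus strand at chr19:29380366-29380387 of mouse genome build GRCm38, in exon 4 of 7, within the coding sequence. M5 as listed has 58 bases against 52 in PS473 and pairs with 16 bases before the GU. The study's text describes the PS473 used in cells as a variant with an equally long arm. That variant is not shown here, so the listed PS473 and M5 differ in arm length as well as at the marked positions.

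Cd274, the target of PS473, was not lower in the tumors that received the active ribozyme in the framework than in PBS tumors beyond the spread between tumors. PBS tumors held 21.5, 15.7 and 12.3 FPKM, and their mean was 16.5 ± 4.64 (SD, n = 3). The Free PS473 tumors had 12.3, 11.7 and 14.0 FPKM and a mean of 12.7 ± 1.21, and the PS473@CPs tumors had 11.9, 12.6 and 24.5 FPKM and a mean of 16.3 ± 7.10. The 3 Free PS473 tumors lay close together, and PS473@CPs tumor 3 stood far above its group. The NKMOF-101-[Mn] tumors had 14.1, 14.6 and 15.9 FPKM and a mean of 14.9 ± 0.945. The M5@NKMOF-101-[Mn] tumors had 21.8, 21.0 and 28.2 FPKM and a mean of 23.7 ± 3.94, and the PS473@NKMOF-101-[Mn] tumors had 17.0, 32.9 and 9.74 FPKM and a mean of 19.9 ± 11.9. PS473@NKMOF-101-[Mn] thus held both the highest and the lowest Cd274 of the 18 tumors, a 3.38-fold range, and its values overlapped those of every other group.

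**Figure D1:**
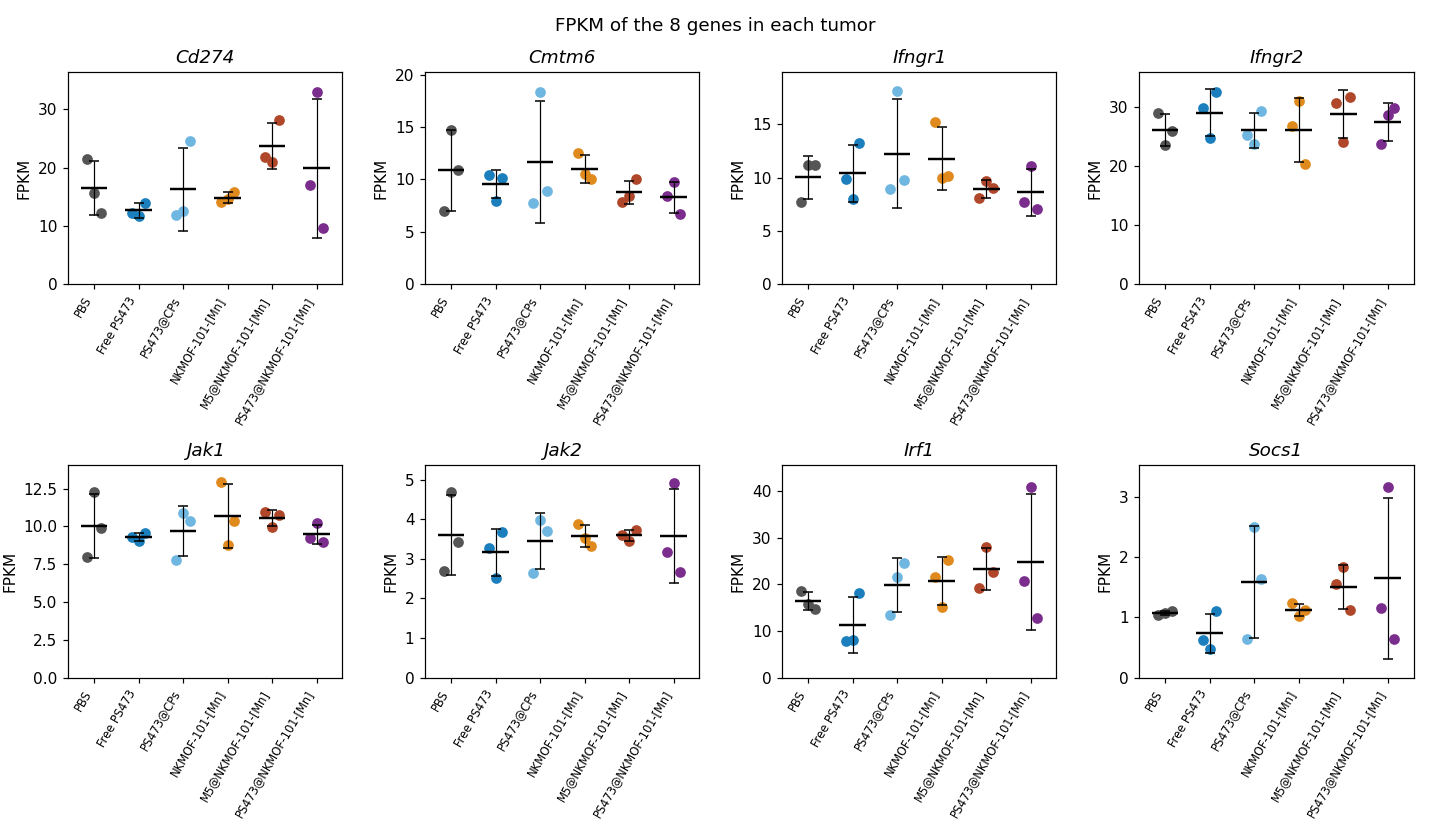
FPKM of each of the 8 genes (vertical axes, linear and starting at 0) in the 18 tumors, by group; each point is 1 tumor and the horizontal bars are group means with SD, n = 3. Cd274, Irf1 and Socs1 are widest in PS473@NKMOF-101-[Mn], where tumor 2 is high for all 3 genes (32.9, 40.9 and 3.16 FPKM) and tumor 3 is low (9.74, 12.7 and 0.638 FPKM).

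Differences between groups were tested on log2(FPKM + 1) with limma over all 12357 genes, with p-values adjusted by the Benjamini-Hochberg method, and a gene was called at an adjusted p under 0.05. On this scale Cd274 in PS473@NKMOF-101-[Mn] differed from PBS by 0.13 (95% interval −0.59 to 0.85), from Free PS473 by 0.46 (−0.26 to 1.18), from PS473@CPs by 0.18 (−0.54 to 0.90) and from NKMOF-101-[Mn] by 0.24 (−0.48 to 0.96), each with a standard error of 0.34. Those differences were all positive, and none was called. Without PS473@NKMOF-101-[Mn] tumor 2 they were −0.30 against PBS, 0.03 against Free PS473, −0.24 against PS473@CPs and −0.19 against NKMOF-101-[Mn], so the sign of 3 of them depended on that tumor; the difference from PBS was also negative, at −0.05, without PBS tumor 3.

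The active and the inactive ribozyme in the same framework give the closest comparison for ribozyme activity, read here only from the level of Cd274. The log2 difference of Cd274 in PS473@NKMOF-101-[Mn] from M5@NKMOF-101-[Mn] was −0.39 (95% interval −1.11 to 0.33), a ratio of 0.765 on FPKM + 1 with an interval of 0.464 to 1.26. The interval covers both a marked fall and a small rise, and the difference was not called (limma adjusted p = 1). It was −0.82 without PS473@NKMOF-101-[Mn] tumor 2 and 0.01 without tumor 3. Free PS473 differed from PBS by −0.33 (−1.05 to 0.39) and PS473@CPs by −0.06 (−0.77 to 0.66). The PS473@CPs difference was −0.37 without its tumor 3 and turned positive, by 0.08 to 0.14, without its tumor 1, its tumor 2 or PBS tumor 1. Pooled over carriers, groups with the active ribozyme differed from the others by −0.22 (−0.64 to 0.20), a ratio of 0.859 with an interval of 0.644 to 1.15. That difference ran from −0.36 without PS473@NKMOF-101-[Mn] tumor 2 to −0.09 without tumor 3.

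Between groups with and without the framework, no difference in Cd274 was called either. Active PS473 was in Free PS473 and PS473@CPs on the side without it, and in PS473@NKMOF-101-[Mn] alone on the side with it. This comparison thus mixes framework with active ribozyme. The 3 groups with it differed from the 3 without by 0.31 (95% interval −0.11 to 0.72, limma adjusted p = 0.900), and by 0.16 without PS473@NKMOF-101-[Mn] tumor 2 and 0.44 without tumor 3. NKMOF-101-[Mn] alone differed from PBS by −0.11 (−0.83 to 0.61; 0.09 without PBS tumor 1) and M5@NKMOF-101-[Mn] from PBS by 0.52 (−0.20 to 1.24). The largest Cd274 difference among the pairs of groups compared was that of M5@NKMOF-101-[Mn] over NKMOF-101-[Mn], 0.63 (−0.09 to 1.35), with an unadjusted p of 0.083 and an adjusted p of 1.00 in limma. Every M5@NKMOF-101-[Mn] tumor lay above every NKMOF-101-[Mn] tumor, which was so for 4.47% of all genes tested. The effect of the ribozyme within the framework minus its effect without a carrier was 0.57 (−0.45 to 1.59), an alternative added after seeing the data. It was 0.14 without PS473@NKMOF-101-[Mn] tumor 2 and 0.97 without tumor 3.

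**Figure D2:**
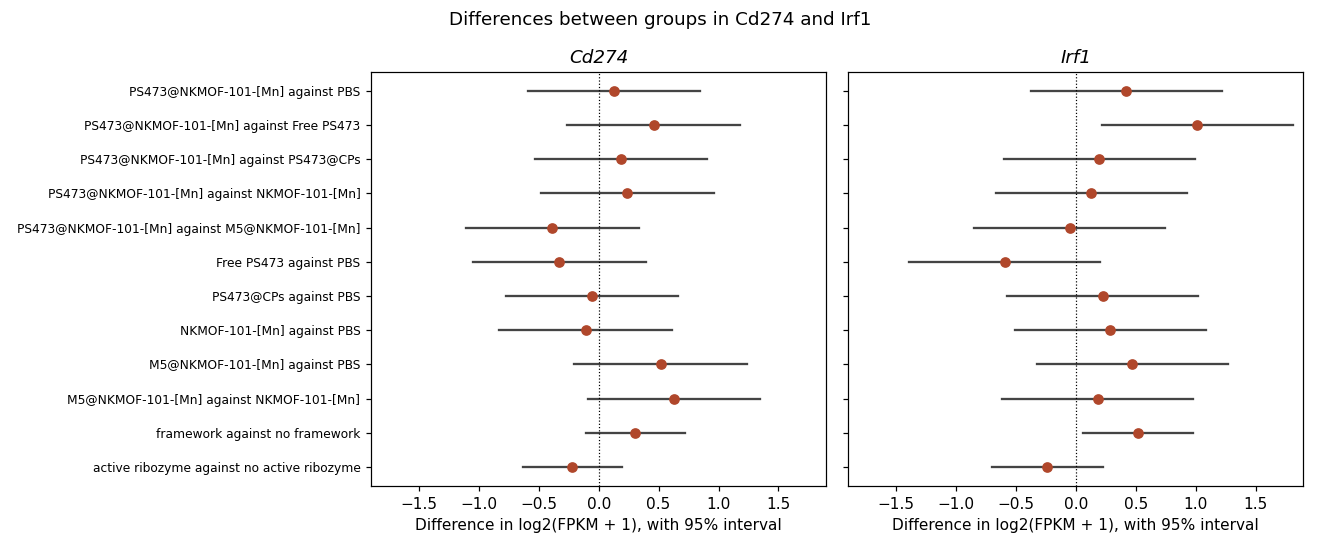
Differences in log2(FPKM + 1) of Cd274 (left) and Irf1 (right) in the 12 comparisons between groups (vertical axis, group named first minus group named second); points are limma estimates and bars 95% intervals, 3 tumors a group. All intervals of Cd274 cover 0, and those of Irf1 leave out 0 in PS473@NKMOF-101-[Mn] against Free PS473 (0.22 to 1.81) and in framework against no framework (0.06 to 0.98).

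None of the 8 genes was called in any comparison, and neither was any other gene. Limma called 0 of 12357 genes (0.0%) in each of the 12 comparisons, in the test among the 6 groups and in the interaction of ribozyme and framework, and the adjusted p of the 8 genes lay between 0.900 and 1.0. At an unadjusted p under 0.05, none of the 8 genes passed in 12 of these 14 tests; over all 14, between 0.591% and 4.98% of all genes passed. In the other 2 tests, Irf1 alone passed: in PS473@NKMOF-101-[Mn] against Free PS473, where 4.98% of all genes passed (615 genes), and in framework against no framework, where 4.56% passed (564 genes). The 1 member in 8 is too few to set apart from such a background.

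The receptor subunits differed in level and in spread. Ifngr2, the signalling subunit, had the highest mean level of the 8 genes, 27.2 FPKM over 18 tumors, and the smallest coefficient of variation, 12.8%. Its group means ran from 26.0 ± 2.90 FPKM in PS473@CPs to 29.0 ± 4.00 in Free PS473 and overlapped throughout. Ifngr1, the ligand-binding subunit, had a mean of 10.3 FPKM and varied by 27.2%. Its values were 7.72, 11.2 and 11.2 FPKM in PBS, 9.90, 7.99 and 13.3 in Free PS473, and 8.90, 18.1 and 9.77 in PS473@CPs. PS473@CPs tumor 2 was the highest of all. In NKMOF-101-[Mn] Ifngr1 had 15.2, 9.96 and 10.2 FPKM, in M5@NKMOF-101-[Mn] 8.10, 9.72 and 8.99, and in PS473@NKMOF-101-[Mn] 7.76, 11.1 and 7.02. Every M5@NKMOF-101-[Mn] tumor lay below every NKMOF-101-[Mn] tumor for Ifngr1, as it did for 10.5% of all genes, and the log2 difference was −0.34 (95% interval −0.88 to 0.20; −0.16 without NKMOF-101-[Mn] tumor 1). PS473@NKMOF-101-[Mn] differed from PS473@CPs by −0.42 (−0.96 to 0.12; −0.12 without PS473@CPs tumor 2). For Ifngr2 the difference of M5@NKMOF-101-[Mn] from NKMOF-101-[Mn] was 0.15 (−0.19 to 0.49; −0.01 without NKMOF-101-[Mn] tumor 3), so for no receptor gene did an interval leave out 0.

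The kinases were the steadiest genes beside Ifngr2. Jak1, which is bound to the Ifngr1 subunit, had a mean of 9.96 FPKM and a coefficient of variation of 13.3%, with tumors between 7.80 and 12.9 FPKM. Jak2, which is bound to the Ifngr2 subunit, had a mean of 3.50 FPKM, varied by 18.6% and lay between 2.53 and 4.91 FPKM. The groups accounted for 6.60% of the sum of squares of Jak2 and 15.7% of that of Jak1, against a median of 23.3% over all genes tested. Jak1 in PS473@NKMOF-101-[Mn] differed from NKMOF-101-[Mn] by −0.14 (95% interval −0.46 to 0.17), which was −0.01 without NKMOF-101-[Mn] tumor 1 and −0.27 without its tumor 2. Jak2 in Free PS473 differed from PBS by −0.13 (−0.53 to 0.26), which was 0.03 without PBS tumor 2. Jak2 is a neighbour of Cd274 on the plus strand of chromosome 19, at chr19:29251828-29313080 against chr19:29367455-29388095 in GRCm38, yet its level moved 1.94-fold between tumors where that of Cd274 moved 3.38-fold.

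Irf1, the transcription factor between the kinases and Cd274, moved most between groups, which accounted for 43.9% of its sum of squares against 33.3% for Cd274. Its values were 18.6, 15.8 and 14.8 FPKM in PBS, 7.78, 7.96 and 18.1 in Free PS473, and 13.3, 21.6 and 24.6 in PS473@CPs. In NKMOF-101-[Mn] it had 21.6, 15.0 and 25.2 FPKM, in M5@NKMOF-101-[Mn] 19.2, 28.0 and 22.6, and in PS473@NKMOF-101-[Mn] 20.6, 40.9 and 12.7. Free PS473 tumors 1 and 2 were the lowest of the 18, and the third Free PS473 tumor lay among the PBS values. PS473@NKMOF-101-[Mn] exceeded Free PS473 by 1.01 on the log2 scale (SE 0.37, 95% interval 0.22 to 1.81; unadjusted p = 0.016 and adjusted p = 0.919 in limma). Leaving out a tumor of either group moved this value between 0.59 and 1.39. Beside it, all 4 leukocyte markers had a positive difference, none of them past an unadjusted p of 0.05. The mean log2(FPKM + 1) of 7 T-cell markers ran from 0.138 to 0.582 in Free PS473 and from 0.445 to 1.31 in PS473@NKMOF-101-[Mn], and the 2 of them that were tested passed that threshold. Their part in the difference was not tested.

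The framework groups together exceeded the others in Irf1 by 0.52 (SE 0.22, 0.06 to 0.98; unadjusted p = 0.030, adjusted p = 0.900 in limma). Leaving out 1 tumor moved this difference between 0.37 and 0.64. Mean Irf1 was 11.3 FPKM in Free PS473, 16.4 in PBS and 19.8 in PS473@CPs. It was 20.6 in NKMOF-101-[Mn], 23.3 in M5@NKMOF-101-[Mn] and 24.7 in PS473@NKMOF-101-[Mn]. Free PS473 thus lay lowest, PS473@CPs lay near NKMOF-101-[Mn], and the difference without Free PS473 was not tested. As for Cd274, framework against no framework is here mixed with active ribozyme. In the same comparison, all 10 markers of macrophages and monocytes were higher in sign (median log2 difference 0.50, with C1qc and Cd68 past an unadjusted p of 0.05). So were all 4 leukocyte markers (median 0.49), and the part of these markers in the Irf1 difference was not tested. The mean log2(FPKM + 1) of the macrophage markers ran from 3.32 to 3.81 in PBS, 2.47 to 4.52 in Free PS473 and 3.45 to 4.00 in PS473@CPs. In NKMOF-101-[Mn] it ran from 4.08 to 4.87, in M5@NKMOF-101-[Mn] from 3.68 to 4.28 and in PS473@NKMOF-101-[Mn] from 3.26 to 4.24. Free PS473 differed from PBS in Irf1 by −0.60 (−1.39 to 0.20; −0.97 without its tumor 3) and M5@NKMOF-101-[Mn] from PBS by 0.47 (−0.33 to 1.27). All M5@NKMOF-101-[Mn] tumors were above all PBS tumors for Irf1 and also for Socs1, as was so for 4.75% of all genes.

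Socs1, which feeds back on JAK1 and JAK2, was the weakest of the 8 genes, with a mean of 1.28 FPKM, and the most variable, with a coefficient of variation of 52.8%. Its values rest on 29.5 to 163 fragments a tumor, against at least 294 for each of the other genes, so counting error weighs more on it. These fragment numbers come from a recovered depth that may be too low by a factor of 2 or more. It had 1.04, 1.08 and 1.10 FPKM in PBS, 0.628, 0.469 and 1.10 in Free PS473, and 0.636, 2.50 and 1.63 in PS473@CPs. In NKMOF-101-[Mn] it had 1.23, 1.03 and 1.12 FPKM, in M5@NKMOF-101-[Mn] 1.55, 1.83 and 1.12, and in PS473@NKMOF-101-[Mn] 1.15, 3.16 and 0.638. The tumors highest and lowest in Irf1 within PS473@NKMOF-101-[Mn] were so in Socs1 too. Socs1 differed by 0.51 between PS473@NKMOF-101-[Mn] and Free PS473 (SE 0.30), by 0.26 between M5@NKMOF-101-[Mn] and PBS (SE 0.30) and by 0.19 between framework and no framework (SE 0.17), each with an interval that covered 0. Without PS473@NKMOF-101-[Mn] tumor 2 the first of these was 0.13 and the last 0.059, and without M5@NKMOF-101-[Mn] tumor 2 the difference from PBS was 0.17.

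Cmtm6, the stabiliser of PD-L1 protein, had a mean of 10.0 FPKM and followed neither Cd274 nor Irf1. It had 7.00, 14.7 and 10.9 FPKM in PBS, 10.5, 7.99 and 10.2 in Free PS473, and 7.77, 18.4 and 8.89 in PS473@CPs. In NKMOF-101-[Mn] it had 12.5, 10.5 and 10.0 FPKM, in M5@NKMOF-101-[Mn] 7.86, 8.45 and 10.0, and in PS473@NKMOF-101-[Mn] 8.42, 9.73 and 6.74. All PS473@NKMOF-101-[Mn] tumors were below all NKMOF-101-[Mn] tumors, as for 5.5% of all genes, and the log2 difference was −0.38 (95% interval −0.95 to 0.20; −0.25 without PS473@NKMOF-101-[Mn] tumor 3), which limma did not call. PS473@CPs tumor 2 was highest for Cmtm6 as it was for Ifngr1.

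By level per length, the order of the 8 genes over the 18 tumors was Ifngr2, Irf1, Cd274, Ifngr1, Cmtm6, Jak1, Jak2 and Socs1. Irf1 (mean 19.4 FPKM, 7.78 to 40.9) and Cd274 (17.3 FPKM, 9.74 to 32.9) overlapped widely, and Ifngr1, Cmtm6 and Jak1 (10.3, 10.0 and 9.96 FPKM) did not differ beyond their spread. Ligand and checkpoint partners were much weaker. Ifng, the ligand, had a mean of 0.376 FPKM (0.0809 to 1.38), and Pdcd1, which encodes PD-1, had 0.453 FPKM and was listed at 0 in 1 tumor. Pdcd1lg2, for the other ligand of PD-1, had 0.121 FPKM, so these 3 genes fell below the filter and were not tested. Cd276, for the checkpoint molecule B7-H3, had 13.9 FPKM.

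Across tumors, Cd274 was correlated with Irf1, and the call rested on a few tumors. Over 18 tumors Pearson's r was 0.74 (permutation p = 0.00038, adjusted p = 0.0254 over all 12356 other genes) and Spearman's rho 0.79 (permutation p = 0.00019, adjusted p = 0.0213). Among all genes, 2.18% were called by r with Cd274 (269 genes) and 1.81% by rho, so that Irf1 is 1 of 7 genes of the axis against that background. Leaving out the tumors farthest from the median of Cd274, PS473@NKMOF-101-[Mn] tumor 2 and M5@NKMOF-101-[Mn] tumor 3, r was 0.65 (permutation adjusted p = 0.298), and it was no longer called. The call was also lost without PS473@NKMOF-101-[Mn] tumor 2 alone (r = 0.65, permutation adjusted p = 0.170) and without PS473@CPs tumor 3 (r = 0.73, permutation adjusted p = 0.0536). With the group means removed, r was 0.74 (adjusted p = 0.524 in permutations within groups of 3).

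**Figure D3:**
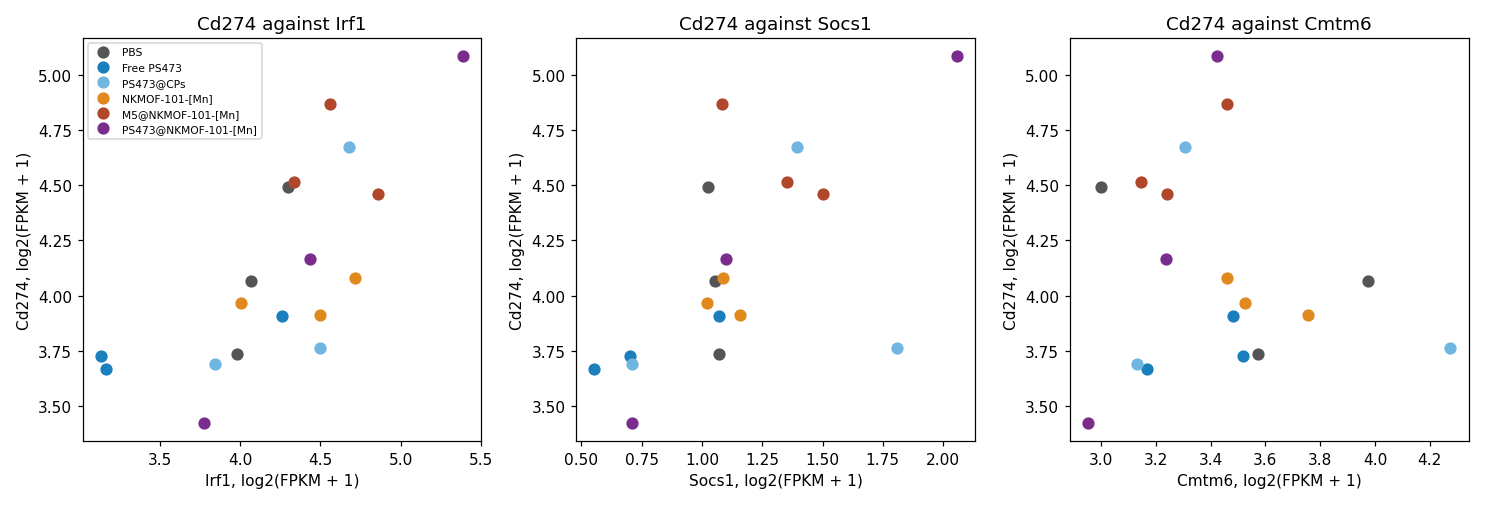
Cd274 (vertical axes) against Irf1, Socs1 and Cmtm6 (horizontal axes), all as log2(FPKM + 1), in 18 tumors coloured by group. Tumors high in Irf1 are high in Cd274 (r = 0.74), Socs1 gives r = 0.63 and Cmtm6 gives r = −0.13.

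The other members followed Cd274 less closely or not detectably. For Socs1, r was 0.63 and rho 0.66 (permutation adjusted p = 0.119 and 0.103), and for Jak2 r was 0.49 and rho 0.53 (0.336 and 0.264). Socs1 was called at an adjusted p of 0.00994 in permutations without PS473@CPs tumor 2 (r = 0.81). Ifngr2 (r = 0.23), Jak1 (0.23), Ifngr1 (−0.11) and Cmtm6 (−0.13) had permutation adjusted p-values between 0.758 and 0.913. For the last 4 genes, 25.9% to 68.3% of all genes had a higher r with Cd274.

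Between the 8 genes there were 28 pairs, of which 7 were called, and they fell into groups that share genes. Each p was adjusted over all genes tested against 1 gene of the pair. That gene was the one standing first in the order Cd274, Cmtm6, Ifngr1, Ifngr2, Jak1, Jak2, Irf1 and Socs1. Adjustment from the side of the other gene was not made, so a call can depend on this order. For each pair, the 2 farthest tumors were those farthest from the median of that first gene, and not of Cd274. For Irf1 they were Free PS473 tumors 1 and 2, so PS473@NKMOF-101-[Mn] tumor 2 stayed in. For Cmtm6 they were PS473@CPs tumor 2 and PBS tumor 2, and for Jak2 PS473@NKMOF-101-[Mn] tumor 2 and Free PS473 tumor 2. Irf1 and Socs1, the interferon-induced pair, had r = 0.85 and rho = 0.89 (permutation adjusted p = 0.00127 and 0.00229), and r = 0.82 without the 2 farthest tumors, against 2.81% of all genes called with Irf1. Cmtm6 and Ifngr1, a surface stabiliser and a receptor subunit, had r = 0.87 and rho = 0.90 (permutation adjusted p = 0.000615 and 0.00294), and r = 0.86 without the 2 farthest. Cmtm6 also went with Jak2 (r = 0.68, permutation adjusted p = 0.0256; rho = 0.67) and with Jak1 (r = 0.65, permutation adjusted p = 0.0417; rho = 0.56, not called by rho). As many as 9.78% of all genes were called with Cmtm6. The kinases Jak1 and Jak2 had r = 0.75 and rho = 0.78 (permutation adjusted p = 0.0345 and 0.0378), where 4.4% of all genes were called with Jak1. Jak2 and Socs1 had r = 0.73 and rho = 0.68 (permutation adjusted p = 0.0351 and 0.0406), with 3.88% of all genes called with Jak2, and r = 0.53 without the 2 farthest tumors. Ifngr2 was called with none of the other members, where 0.0647% of all genes (8 genes) were called with it.

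**Figure D4:**
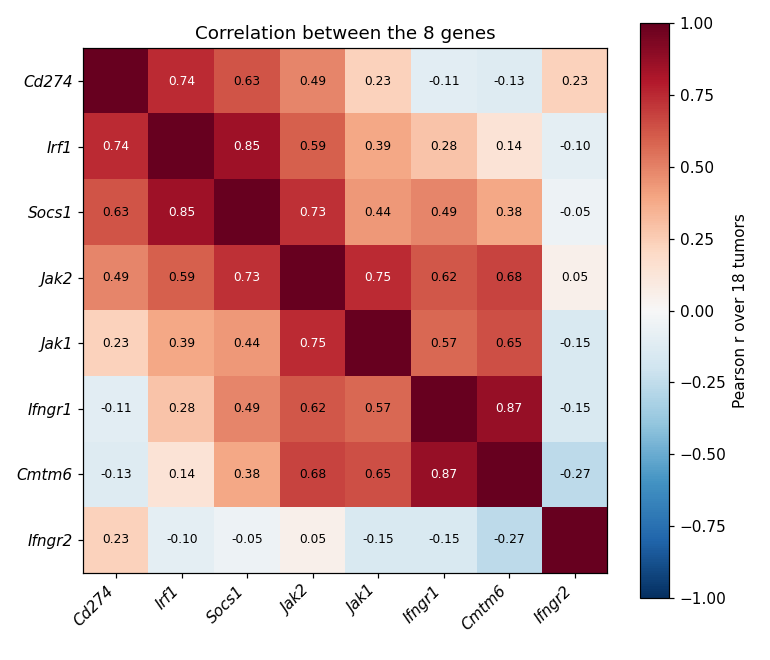
Pearson r of log2(FPKM + 1) over 18 tumors for each pair of the 8 genes, with r printed in each cell and coloured from −1 (blue) to 1 (red). Cd274, Irf1 and Socs1 stand together (0.63 to 0.85), as do Cmtm6, Ifngr1, Jak1 and Jak2 (0.57 to 0.87), and the Ifngr2 row stays between −0.27 and 0.23.

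Of all 12356 other genes, the 10 with the highest r with Cd274 over 18 tumors included Tmem140 (0.91), Rnf114 (0.90), Aox1, H2-M3, Trim34a and Uba7 (0.89 each), Cp and Cflar (0.87 each) and Samd9l (0.86). The permutation adjusted p of these genes was 0.00686 each. Without the 2 tumors farthest from the median of Cd274, their r lay between 0.77 and 0.86. Their adjusted p, between 0.0618 and 0.19, was then no longer under the threshold in permutations. Uba7 encodes the activating enzyme of the ubiquitin-like protein ISG15, H2-M3 a non-classical class I antigen-presenting molecule, and Cflar an inhibitor of caspase-8. Irf1 stood at rank 151.

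Many interferon-gamma targets outside the 8 genes were also correlated with Cd274. Of 19 tested targets, 13 were called with Cd274 across tumors, all positive (median r 0.73, range 0.43 to 0.81), against 2.18% of all genes. They included Tap1, a peptide transporter for antigen presentation (r = 0.80, permutation adjusted p = 0.0147). Of 10 IRF factors and class I and II transactivators, 4 were called: Ciita, the class II transactivator (r = 0.84), Irf9 (0.75), Batf2 (0.72) and Nlrc5, the class I transactivator (0.72). Of 10 other interferon receptors, kinases and STATs, 3 were called, among them Stat2 (0.81) and Ifnar2 (0.80). Of 16 negative regulators of JAK-STAT signalling only Usp18 was called (0.75), and of 23 genes of PD-L1 protein traffic and turnover only Stub1, a ubiquitin ligase, with a negative r (−0.73, permutation adjusted p = 0.0403). None of 10 other factors known to act at Cd274 was called. Without the 2 tumors farthest from the median of Cd274, none of the genes called in these lists kept its call. The permutation adjusted p was then 0.182 for Stat2, 0.210 for Tap1 (r = 0.74), 0.211 for Ciita (r = 0.73) and 0.250 for Ifnar2. It was 0.266 for Usp18 and 0.371 for Stub1. With group means removed, it was 0.395 for Tap1 and 0.509 for Ciita in permutations within groups.

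Between groups no gene of these lists was called, and they are described by unadjusted p-values. In PS473@NKMOF-101-[Mn] against Free PS473, where 4.98% of all genes passed an unadjusted p under 0.05, 17 of 19 interferon-gamma targets passed it, all higher, with a median log2 difference of 1.39 against −0.04 over all genes, and limma called none at an adjusted p. The mean log2(FPKM + 1) of the 21 listed targets was 3.49, 3.52 and 4.61 in the Free PS473 tumors. In PS473@NKMOF-101-[Mn] it was 4.88, 5.98 and 4.44, so tumor 3 of this group lay below Free PS473 tumor 3. Batf2 differed by 1.33 (SE 0.33, limma adjusted p = 0.781), Irf9 by 0.78 and Usp18, which removes ISG15 from proteins, by 1.42. Of the IRF factors 5 of 10 passed the unadjusted threshold there, of the negative regulators 2 of 16 and of the traffic genes 1 of 23, the last a share near that of all genes. In framework against no framework (4.56% of all genes), 15 of 19 targets passed, with a median of 0.63, as did 5 of 10 IRF factors and 4 of 10 receptors, kinases and STATs, among them Stat3 (0.33) and Stat5a (0.25), and of the traffic genes 0 of 23. By group, the mean log2(FPKM + 1) of the 21 listed targets was 3.87 in Free PS473, 4.61 in PBS and 4.95 in PS473@CPs. It was 4.87 in NKMOF-101-[Mn], 5.13 in M5@NKMOF-101-[Mn] and 5.10 in PS473@NKMOF-101-[Mn]. Free PS473 thus lay lowest, and PS473@CPs, without the framework, lay above NKMOF-101-[Mn]. For these lists too, framework against no framework is mixed with active ribozyme. The markers of macrophages and leukocytes described beside Irf1 were higher in sign in framework against no framework, and their part in the lists was not tested. Against PBS, PS473@NKMOF-101-[Mn] had 1 of 19 targets past the unadjusted threshold (2.1% of all genes) and a median of 0.61, and Free PS473 had 9 of 19 (1.81% of all genes), all lower, with a median of −0.81. For the active against the inactive ribozyme in the framework, 0 of 19 passed (0.591% of all genes) and the median was 0.00.

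The cell content of the tumor pieces moved with some of the 8 genes. Markers of melanoma (9 genes such as those of pigment synthesis) were high throughout, with a mean log2(FPKM + 1) between 8.38 and 8.95. The same mean over 11 skin epithelium markers ran from 0.151 to 7.19. It was 0.197, 6.63 and 5.60 in PBS, 0.151, 0.176 and 3.60 in Free PS473, and 0.182, 7.19 and 2.55 in PS473@CPs. In NKMOF-101-[Mn] it was 5.60, 0.192 and 2.30, in M5@NKMOF-101-[Mn] 0.222, 0.214 and 4.17, and in PS473@NKMOF-101-[Mn] 0.209, 4.03 and 0.957. Every group thus held tumors with and without a marked skin signal, and PS473@CPs tumor 2, highest in Cmtm6 and Ifngr1, was highest in skin.

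With the 6 groups in the fit and a score as covariate, limma called slopes on skin epithelium for Cmtm6 (0.11 per unit of score, SE 0.020, adjusted p = 0.00291), Ifngr1 (0.11, adjusted p = 0.00169), Jak1 (0.057, adjusted p = 0.0113) and Jak2 (0.064, adjusted p = 0.0393), where 6.6% of all genes were called. These fits were added after seeing the data. The Jak2 call was lost without any 1 of 10 tumors, and the Jak1 call without PBS tumor 1 or PS473@CPs tumor 1. Cd274 had a slope of 0.015 on skin (adjusted p = 0.900). On fibroblast markers the same 4 genes were called (slopes 0.25, 0.26, 0.13 and 0.17; 8.68% of all genes), and on endothelial markers Cmtm6 (0.39) and Ifngr1 (0.36; 5.71%). The genes called with Cmtm6 across tumors were thus also among those with slopes on skin and fibroblast markers, and the part of these cells in the correlations was not tested.

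On 4 leukocyte markers, Irf1 had a slope of 0.72 (limma adjusted p = 0.00702) and Ifngr1 one of 0.44 (adjusted p = 0.0331), with 4.34% of all genes called. The Irf1 call was lost without Free PS473 tumor 3 (adjusted p = 0.0764) and that of Ifngr1 without any 1 of 7 tumors. The leukocyte score was 1.83, 1.54 and 3.37 in Free PS473, 2.50, 3.06 and 2.82 in PBS, and 2.33, 3.51 and 2.53 in PS473@NKMOF-101-[Mn]. On markers of macrophages and monocytes only Irf1 was called (0.68, limma adjusted p = 0.0327; 3.72% of all genes), and on melanoma markers none of the 8 genes (0.809%). On the score of interferon-gamma targets Irf1 had a slope of 1.01 (SE 0.074, limma adjusted p = 5.18e-06) and Socs1 of 0.70 (adjusted p = 0.00918), with 2.08% of all genes called. The slope of Cd274 was 0.70 (SE 0.17) and was not called (limma adjusted p = 0.0522). Its adjusted p in limma ran from 0.0234, without PS473@CPs tumor 2, to 0.371 when 1 tumor was left out, and it was also called without Free PS473 tumor 3. Socs1 was not called without PS473@NKMOF-101-[Mn] tumor 2 (adjusted p = 0.182).

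**Figure D5:**
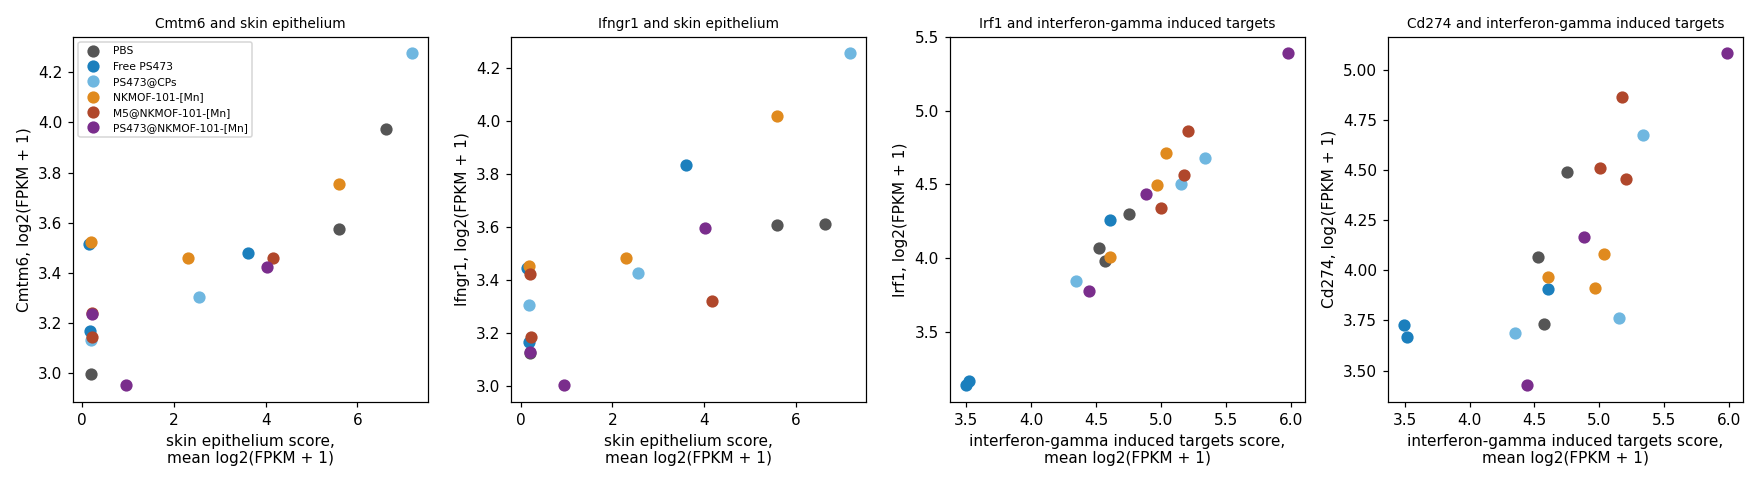
Cmtm6 and Ifngr1 against the skin epithelium score, and Irf1 and Cd274 against the score of interferon-gamma targets, each as log2(FPKM + 1) with the score as a mean of log2(FPKM + 1) on the horizontal axes; points are the 18 tumors, coloured by group. Cmtm6 and Ifngr1 are highest in the PS473@CPs tumor with the highest skin score (7.19), and Irf1 lies along the target score (3.49 to 5.98) more tightly than Cd274, with slopes of 1.01 (SE 0.074) and 0.70 (SE 0.17).

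Promoters of the members with the strongest ties to interferon-gamma are shown because Irf1 and Socs1 moved together, 250 bases before to 50 after the RefSeq start, in GRCm38.p6. All 8 genes matched, Irf1 with 2 windows. Both strands were searched for the STAT site TTCNNNGAA, found in 8.29% of 32817 promoters, and for the IRF site GAAANNGAAA, found in 3.43%. Capitals mark matches. Irf1 (plus strand, chr11:53769764-53770063) held 1 STAT match, with its first base 90 bases before the start, and Socs1 (minus strand, chr16:10785487-10785786) held 2 IRF matches that overlap. Cd274 (plus strand, chr19:29367188-29367487), the other 5 genes and the second Irf1 window held neither run of letters in this window.
Irf1: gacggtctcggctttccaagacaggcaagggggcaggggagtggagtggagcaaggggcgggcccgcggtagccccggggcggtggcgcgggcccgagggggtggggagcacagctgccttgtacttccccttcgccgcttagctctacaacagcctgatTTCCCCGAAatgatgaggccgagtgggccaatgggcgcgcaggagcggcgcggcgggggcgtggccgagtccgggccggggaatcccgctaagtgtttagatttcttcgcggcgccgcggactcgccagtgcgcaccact
Socs1: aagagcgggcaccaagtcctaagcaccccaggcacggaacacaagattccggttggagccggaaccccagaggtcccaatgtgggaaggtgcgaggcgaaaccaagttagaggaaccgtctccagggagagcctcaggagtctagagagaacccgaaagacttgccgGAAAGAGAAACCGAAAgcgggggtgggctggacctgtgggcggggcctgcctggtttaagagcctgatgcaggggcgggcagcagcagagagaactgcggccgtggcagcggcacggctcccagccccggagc
Cd274: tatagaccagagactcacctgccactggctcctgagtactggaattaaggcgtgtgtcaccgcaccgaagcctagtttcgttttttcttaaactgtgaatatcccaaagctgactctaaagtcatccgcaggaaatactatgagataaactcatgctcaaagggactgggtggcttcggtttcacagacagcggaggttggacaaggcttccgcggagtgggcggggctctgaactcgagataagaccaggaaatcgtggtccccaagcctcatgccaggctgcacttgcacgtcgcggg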

How the data were processed

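Values were the deposited FPKM of 41079 genes in 18 tumors, which the authors computed from poly(A) RNA. The submitters' processing notes name GRCm39; the aligner, counting tool and annotation are not given in the sources used here. Between 48.6% and 52.7% of low values were whole fragments (tolerance 0.02), so no count model was used, and the recovered depth was 17204000 to 28393000 fragments per tumor. Between 83.7% and 87.1% were multiples of 0.5 fragments, so this depth may be too low by a factor of 2. Groups came from the sample titles and treatment descriptions. No pair of tumors shared more than 0.8174% identical values.

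From these values, log2(FPKM + 1) was fitted with limma 3.58.1 in R 4.3.3 for the 12357 genes whose mean was 1 FPKM or more: 1 mean per group, a trend in the prior variance, Benjamini-Hochberg adjustment. Correlations used 100000 permutations over tumors, two-sided, adjusted over all other genes (Python 3.11.15, numpy 2.4.6, scipy 1.17.1, pandas 2.3.3). Both procedures were tested on simulated data. A score is the mean log2(FPKM + 1) of a list. Coordinates and promoters came from GRCm38, used by gene name only. Alternatives were a pseudocount of 0.1, other filters and scalings, fits of the groups compared alone, no variance trend, a skin covariate, a replicate block and leaving out each tumor.

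Named were the 8 genes, the 10 genes with the highest r with Cd274, and list genes that passed a test, had the lowest p among the groups or the highest level, with a few more chosen after their values were seen. The genes and lists were chosen with earlier results of these data known. Results of a few list genes are not reported here.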

Additional observations from a re-analysis of the deposited data

How the results depend on the processing

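With no filter on FPKM (31286 genes), limma called 2 genes in Free PS473 against PBS, M5@NKMOF-101-[Mn] against NKMOF-101-[Mn], PS473@NKMOF-101-[Mn] against Free PS473 and against PBS, and framework against no framework, 3 in M5@NKMOF-101-[Mn] against PBS and between the active and the inactive ribozyme in the framework, 1 in PS473@NKMOF-101-[Mn] against PS473@CPs, active ribozyme and the interaction, and 4 among the 6 groups. PS473@CPs against PBS gave 1 with only the groups compared, and 0 to 1 when 1 tumor was left out, as did framework against no framework (1 without PS473@CPs tumor 3). Members called with Cd274 numbered 0 with group means removed and 0 without the 2 tumors farthest from the median of Cd274. They numbered 2 with the skin score regressed out (Socs1 added, permutation adjusted p = 0.0473) and 0 to 2 without 1 tumor. Members with a called slope on interferon-gamma targets numbered 1 under quantile normalization and 1 to 3 without 1 tumor, on leukocytes 1 and 0 to 2, and on skin 2 to 4 without 1 tumor.

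With group means removed, r with Cd274 changed sign for Cmtm6 (0.0057) and Ifngr1 (0.092), with leukocytes regressed out for Jak1 (−0.020), and the difference of Jak2 between Free PS473 and PBS became 0.048 with the skin covariate. Leaving out 1 tumor, Cd274 ranged from −0.29 to 0.087 in NKMOF-101-[Mn] against PBS, −0.37 to 0.14 in PS473@CPs against PBS, −0.82 to 0.013 against M5@NKMOF-101-[Mn], −0.19 to 0.64 against NKMOF-101-[Mn], −0.30 to 0.53 against PBS and −0.24 to 0.58 against PS473@CPs (the last 4 for PS473@NKMOF-101-[Mn]). Ifngr1 ranged from −0.28 to 0.013 in r with Cd274, Ifngr2 from −0.012 to 0.28 in M5@NKMOF-101-[Mn] against NKMOF-101-[Mn] and Jak2 from −0.28 to 0.031 in Free PS473 against PBS. The cause was not tested. With replicate numbers as a block (replicate block), 0 genes were called in each comparison. Correlations of same-numbered tumors of different groups ran from −0.73 to 0.72, with 18 of 45 over 0.1. Those of differently numbered tumors ran from −0.69 to 0.72, with 41 of 90 over 0.1, so the numbers gave no sign of pairing the tumors. Under settings other than leaving out a tumor, 379 values of single genes kept direction and side of the threshold, 4 changed sign, 5 lost a call and 1 gained one. Socs1 is limited by its few fragments (29.5 to 163 a tumor at the recovered depth, which may be too low by a factor of 2 or more).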
